A study of Mus musculus with 6 samples.

Results

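The 9 genes described here, Spp1, Gpnmb, Mamdc2, Dlg5, Igf1, Fabp5, Ch25h, Ank and Csf1, belong to the plaque stage of the disease-associated microglial programme, and were picked by symbol from the 20129 genes of the deposited table. They were picked with their levels in the 2 genotypes already known, under the working name of the plaque-associated genes that fall most. Their differences between genotypes are therefore given as a description and without a test. The name fits only in part. For 6 of the 9, every Il3-/-5xFAD library lay below every 5xFAD library. Ranked by log2 difference together with 56 other disease-associated genes, 5 of the 9 were among the 9 lowest. Csf1 averaged 267 ± 141 CPM (counts per 1000000 reads) in Il3-/-5xFAD microglia and 236 ± 32.3 CPM in 5xFAD microglia (SD, n = 3 each). The groups overlapped for Csf1, Ch25h and Ank. All 9 passed the filter on low values used for the genome-wide test (at least 1 CPM in at least 3 libraries).

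The Il3-/-5xFAD libraries (replicates 1, 2 and 3) came from mice that lack interleukin-3, and the 5xFAD libraries (replicates 4, 5 and 6) from mice that have it. All the mice were of the C57BL6/J strain, aged 5 months, and carried 5xFAD, a set of mutant human amyloid precursor protein and presenilin transgenes driven by the Thy1 promoter of neurons, so no library came from a mouse without amyloid. Each library was 1 pool of cells from 4 mice, 2 male and 2 female, sorted from perfused brain as live CD45+ CD11b+ cells, a gate that other myeloid cells can also pass. Values of single animals are averaged within a pool.

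Microglia near amyloid plaques leave their resting state and switch on a programme of lipid handling, lysosomal and secretory genes, whose later stage depends on the receptor TREM2. The members of that stage include secreted factors (osteopontin from Spp1, insulin-like growth factor 1, and colony-stimulating factor 1, the ligand of CSF1R), membrane proteins (the glycoprotein GPNMB and the pyrophosphate exporter ANK), enzymes and carriers of lipids (cholesterol 25-hydroxylase from Ch25h and the fatty acid binding protein FABP5), and the scaffold protein DLG5. Mamdc2 encodes a protein with MAM domains.

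RefSeq promoter windows of GRCm38.p6, a later build than the mm9 named for these files, matched 7 of the 9 genes by symbol, on the chromosomes given with them. Fabp5 on chromosome 3 and Mamdc2 on chromosome 19 were not among them. No member lies on chromosome 11, which carries Il3. The 250 bases before the transcript start are printed 5′ to 3′ for Spp1 and Gpnmb, the members with a window whose levels differed most, for Ch25h, which holds the most motif matches together with Spp1, and for Ank, whose window stands apart in base composition. Capitals mark matches to the 7 motifs searched on both strands: the E-box CACGTG or CATGTG, AP-1 TGANTCA, PU.1 GAGGAAGT, C/EBP TTGCNNAA, CRE TGACGTCA, RUNX TGTGGT, and TATAAA for the TATA box.
Spp1, chr5:104434861-104435110, plus strand: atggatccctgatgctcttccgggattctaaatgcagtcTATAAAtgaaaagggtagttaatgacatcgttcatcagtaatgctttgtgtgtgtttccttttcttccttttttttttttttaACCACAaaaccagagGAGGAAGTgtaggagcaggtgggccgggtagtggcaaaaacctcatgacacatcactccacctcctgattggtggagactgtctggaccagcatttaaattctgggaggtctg
Gpnmb, chr6:49036268-49036517, plus strand: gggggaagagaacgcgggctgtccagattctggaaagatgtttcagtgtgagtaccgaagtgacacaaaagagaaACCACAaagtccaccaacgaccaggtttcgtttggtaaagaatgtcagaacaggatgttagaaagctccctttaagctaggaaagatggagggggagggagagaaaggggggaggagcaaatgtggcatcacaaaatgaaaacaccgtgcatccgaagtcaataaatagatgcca
Ch25h, chr19:34475149-34475398, minus strand: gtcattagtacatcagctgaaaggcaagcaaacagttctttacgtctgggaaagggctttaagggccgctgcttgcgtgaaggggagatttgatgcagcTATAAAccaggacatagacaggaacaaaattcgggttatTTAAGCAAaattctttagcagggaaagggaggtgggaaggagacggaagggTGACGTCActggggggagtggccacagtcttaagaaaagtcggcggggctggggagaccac
Ank, chr15:27466427-27466676, plus strand: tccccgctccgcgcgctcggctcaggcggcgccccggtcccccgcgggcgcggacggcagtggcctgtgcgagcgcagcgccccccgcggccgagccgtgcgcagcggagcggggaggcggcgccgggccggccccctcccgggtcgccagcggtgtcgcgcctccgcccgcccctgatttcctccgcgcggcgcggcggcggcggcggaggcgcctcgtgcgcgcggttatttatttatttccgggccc

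No motif was shared by more than 2 of the 7 windows. Spp1 held a PU.1 match with its nearest base 106 bases before the start, a RUNX match 123 bases before it and a TATA match 206 bases before it. Gpnmb held a RUNX match 170 bases before the start, and Ch25h a CRE match at 54, a C/EBP match at 105 and a TATA match at 146 bases. Igf1 on chromosome 10 held an AP-1 match at 31 bases, and Dlg5 on chromosome 14, Ank and Csf1 on chromosome 3 held none of the 7 motifs. Of 27025 windows of the same length, 1 for each gene, 2.44% held the PU.1 letters, 14.2% RUNX, 13% TATA, 9.55% C/EBP, 1.62% CRE, 6.87% AP-1 and 17.6% an E-box. The window of Ank was 81.2% G and C with 49 CpG pairs, against medians of 52% and 6 over all windows, while the other 6 ran from 43.6% (Spp1) to 56.4% (Csf1), with 3 to 10 CpG pairs. These matches are letters in a window, not sites shown to be bound.

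The deletion was visible in the reads: Il3 had no read in any Il3-/-5xFAD library, against 54, 61 and 29 reads in 5xFAD replicates 4, 5 and 6. The libraries held 27970850 to 37605490 reads. All 8 defining microglial markers were present in every library, with summed levels of 26955 to 29631 CPM in Il3-/-5xFAD and 25962 to 27558 CPM in 5xFAD. The rarest member in any library was Mamdc2 in Il3-/-5xFAD replicate 1, with 58 reads (1.95 CPM, exact 95% binomial interval 1.48 to 2.52), and every other interval was narrower relative to its value. Such intervals cover counting error only. In bulk RNA of this kind, fewer cells expressing a gene and less RNA per cell cannot be told apart.

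Among the secreted factors, Spp1, whose product osteopontin binds integrins and CD44, was lower in all 3 Il3-/-5xFAD libraries than in any 5xFAD library. It stood at 24.4, 29.9 and 32.2 CPM in Il3-/-5xFAD replicates 1, 2 and 3, and at 90.5, 164 and 214 CPM in 5xFAD replicates 4, 5 and 6. The lowest 5xFAD library held 2.81 times the level of the highest Il3-/-5xFAD library. The log2 difference, Il3-/-5xFAD minus 5xFAD on log2(CPM + 1), was -2.32, and the mean level in Il3-/-5xFAD was 18.4% of that in 5xFAD. The Il3-/-5xFAD libraries lay close together (SD 14% of the mean), while the 5xFAD libraries were spread over a 2.37-fold range (SD 39.8% of the mean).

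Igf1, a growth factor for neurons and glia, was at 11.8, 24.4 and 16.0 CPM in Il3-/-5xFAD replicates 1, 2 and 3, and at 29.0, 49.96 and 49.91 CPM in 5xFAD replicates 4, 5 and 6. The groups did not overlap, but the margin was narrow: 5xFAD replicate 4 held 1.19 times the level of Il3-/-5xFAD replicate 2. The log2 difference was -1.27.

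Csf1 did not follow the pattern of a lower level in Il3-/-5xFAD. It was at 159, 427 and 215 CPM in Il3-/-5xFAD replicates 1, 2 and 3, and at 199, 259 and 249 CPM in 5xFAD replicates 4, 5 and 6. The highest of the 6 values was therefore in an Il3-/-5xFAD library and so was the lowest. The log2 difference was 0.06, and it was -0.34 without Il3-/-5xFAD replicate 2 and -0.06 without 5xFAD replicate 4. With 12014 reads behind the value of Il3-/-5xFAD replicate 2 (exact 95% binomial interval 419 to 434 CPM), counting error is small beside that library's distance from the other 5.

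Among the membrane proteins, Gpnmb, a glycoprotein of lipid-laden and lysosome-rich macrophages, had the lowest log2 difference of the 9. It was at 3.16, 16.3 and 6.43 CPM in Il3-/-5xFAD replicates 1, 2 and 3, and at 30.1, 73.4 and 95.2 CPM in 5xFAD replicates 4, 5 and 6. The groups did not overlap, and the replicates of each genotype were far apart, over a 5.15-fold range in Il3-/-5xFAD and a 3.16-fold range in 5xFAD. The log2 difference was -2.90, and the mean in Il3-/-5xFAD was 13% of that in 5xFAD.

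Ank, which exports pyrophosphate and ATP from cells, was at 121, 194 and 193 CPM in Il3-/-5xFAD replicates 1, 2 and 3, and at 177, 256 and 258 CPM in 5xFAD replicates 4, 5 and 6. The groups overlapped, since 5xFAD replicate 4 lay below Il3-/-5xFAD replicates 2 and 3. The log2 difference was -0.46. Ank overlaps Otulin on the opposite strand, listed in the table under its older symbol Fam105b at a mean of 50.4 CPM, and whether the counting used strand is not given in the sources used here.

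Of the lipid genes, Fabp5, an intracellular carrier of fatty acids, was at 5.14, 11.5 and 8.88 CPM in Il3-/-5xFAD replicates 1, 2 and 3, and at 14.1, 28.5 and 28.6 CPM in 5xFAD replicates 4, 5 and 6. The groups did not overlap, with a margin of 1.23-fold between the nearest libraries, and the log2 difference was -1.38. Fabp5 has near-identical copies: Gm6166 holds 19.6% of the 50-base stretches of its transcript. The highest level of Gm6166 in any library was 0.513 CPM. How reads that match both were counted is not given in the sources used here. The low level of Gm6166 therefore does not show whether the Fabp5 level was affected. Ch25h, which makes 25-hydroxycholesterol, was at 7.99, 10.6 and 6.88 CPM in Il3-/-5xFAD replicates 1, 2 and 3, and at 9.55, 14.8 and 15.9 CPM in 5xFAD replicates 4, 5 and 6. Its groups overlapped and its log2 difference was -0.59.

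Dlg5, a scaffold of cell junctions and polarity, was the steadiest member within a genotype. It was at 3.90, 4.37 and 3.40 CPM in Il3-/-5xFAD replicates 1, 2 and 3, and at 11.8, 11.7 and 13.2 CPM in 5xFAD replicates 4, 5 and 6. The SD was 12.5% of the mean in Il3-/-5xFAD and 7.09% in 5xFAD, and the lowest 5xFAD library held 2.68 times the level of the highest Il3-/-5xFAD library. The log2 difference was -1.44. Mamdc2 was at 1.95, 5.93 and 3.94 CPM in Il3-/-5xFAD replicates 1, 2 and 3, and at 20.0, 23.5 and 32.0 CPM in 5xFAD replicates 4, 5 and 6. Its margin of 3.37-fold between the nearest libraries was the widest of the 9, and its log2 difference was -2.47.

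**Figure D1:**
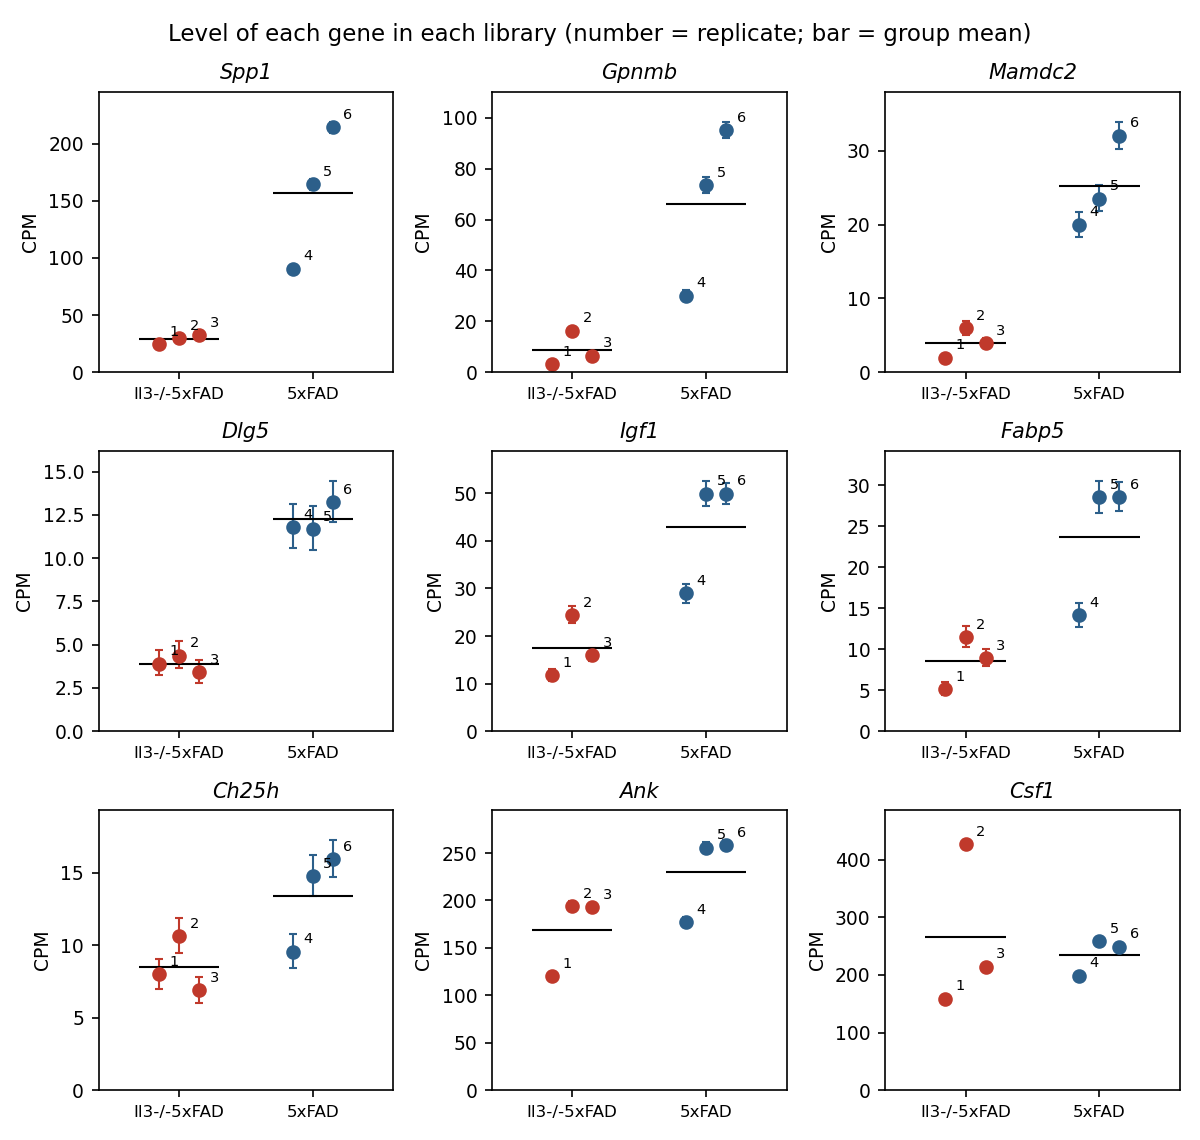
Level of each of the 9 genes in CPM (linear axis from 0) in each library, with Il3-/-5xFAD on the left and 5xFAD on the right of each panel. Points are libraries, error bars exact 95% binomial counting intervals and black bars group means; the groups are apart for Spp1, Gpnmb, Mamdc2, Dlg5, Igf1 and Fabp5 and overlap for Ch25h, Ank and Csf1, where Il3-/-5xFAD replicate 2 has the highest value, 427 CPM.

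Over the 9 genes the median log2 difference was -1.38, against -0.00 over all 11900 genes tested, and 8 of the 9 differences were negative. For 6 of the 9, every Il3-/-5xFAD library lay below every 5xFAD library, as did 11.5% of all tested genes (9.65% were apart the other way and 21.2% either way); since the members were picked on this contrast, nothing is read from that count. Ranked from the lowest difference among the 11900 tested genes, Gpnmb was in place 2, Mamdc2 in place 4 and Spp1 in place 7. Dlg5, Fabp5 and Igf1 were in places 46, 57 and 76, Ch25h and Ank in places 630 and 931, and Csf1 in place 7361.

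Levels per 1000 bases of the longest coding transcript were set beside each other between genes. Which transcript of each gene these cells express was not measured, so the order depends on the length chosen. In Il3-/-5xFAD the order was Csf1 (63.9 ± 33.8 CPM per kilobase, SD, n = 3), Ank (48.4 ± 12.04), Spp1 (19.1 ± 2.67), Fabp5 (8.61 ± 3.23), Ch25h (6.13 ± 1.38), Igf1 (2.47 ± 0.913), Gpnmb (2.33 ± 1.84), Mamdc2 (1.15 ± 0.583) and Dlg5 (0.495 ± 0.062). In 5xFAD it was Spp1 (104 ± 41.3), Ank (65.9 ± 13.2), Csf1 (56.4 ± 7.73), Fabp5 (24.0 ± 8.43), Gpnmb (17.9 ± 8.95), Ch25h (9.67 ± 2.45), Mamdc2 (7.38 ± 1.82), Igf1 (6.09 ± 1.72) and Dlg5 (1.56 ± 0.111). By this measure the most abundant member was Csf1 in Il3-/-5xFAD and Spp1 in 5xFAD. The ranges of neighbouring genes overlapped for Csf1 and Ank, Fabp5 and Ch25h, Igf1 and Gpnmb, and Gpnmb and Mamdc2 in Il3-/-5xFAD, and for every neighbouring pair in 5xFAD but Csf1 with Fabp5 and Igf1 with Dlg5.

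The libraries of each genotype kept much the same order from gene to gene. Within Il3-/-5xFAD, replicate 1 was the lowest library for 7 of the 9 genes and replicate 2 the highest for 8, while over all tested genes replicate 1 was lowest for 25% and replicate 2 highest for 22.4%. Within 5xFAD, replicate 4 was the lowest for 8 of the 9 and replicate 6 the highest for 7, against 37% and 32.1% of all tested genes. The exceptions were Spp1, highest in Il3-/-5xFAD replicate 3, Dlg5 and Ch25h, lowest in Il3-/-5xFAD replicate 3, Dlg5, lowest in 5xFAD replicate 5, and Igf1 and Csf1, highest in 5xFAD replicate 5.

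As a mean over the 9 genes, Il3-/-5xFAD replicates 1, 2 and 3 deviated from their genotype's mean by -0.45, 0.47 and -0.02 on the log2 scale, and 5xFAD replicates 4, 5 and 6 by -0.46, 0.15 and 0.31. The means over all tested genes stayed between -0.02 and 0.03. The widest swings were those of Gpnmb, from -0.96 to 1.09. The order of libraries was known when the genes were picked, so it is a description too.

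Of the other 56 disease-associated genes, 42 (75%) were lowest in Il3-/-5xFAD replicate 1 within that genotype, and 50 (89.3%) in 5xFAD replicate 4 within theirs, against the 25% and 37% of all tested genes. Il3-/-5xFAD replicate 2 was highest for 24 of them (42.9%, against 22.4% of all tested genes) and replicate 3 for 28 (50%, against 39.3%). 5xFAD replicate 5 was highest for 31 (55.4%, against 33%) and replicate 6 for 19 (33.9%, against 32.1%), where replicate 6 was highest for 7 of the 9 members. After each genotype's mean was taken off, all 36 pairs of members were positively correlated over the 6 libraries, with a median Pearson's r of 0.79, from 0.13 for Dlg5 with Ank to 0.99 for Gpnmb with Igf1. These correlations rest on 6 points, fewer of which are free once the genotype means are taken off, and on libraries shared by all genes.

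**Figure D2:**
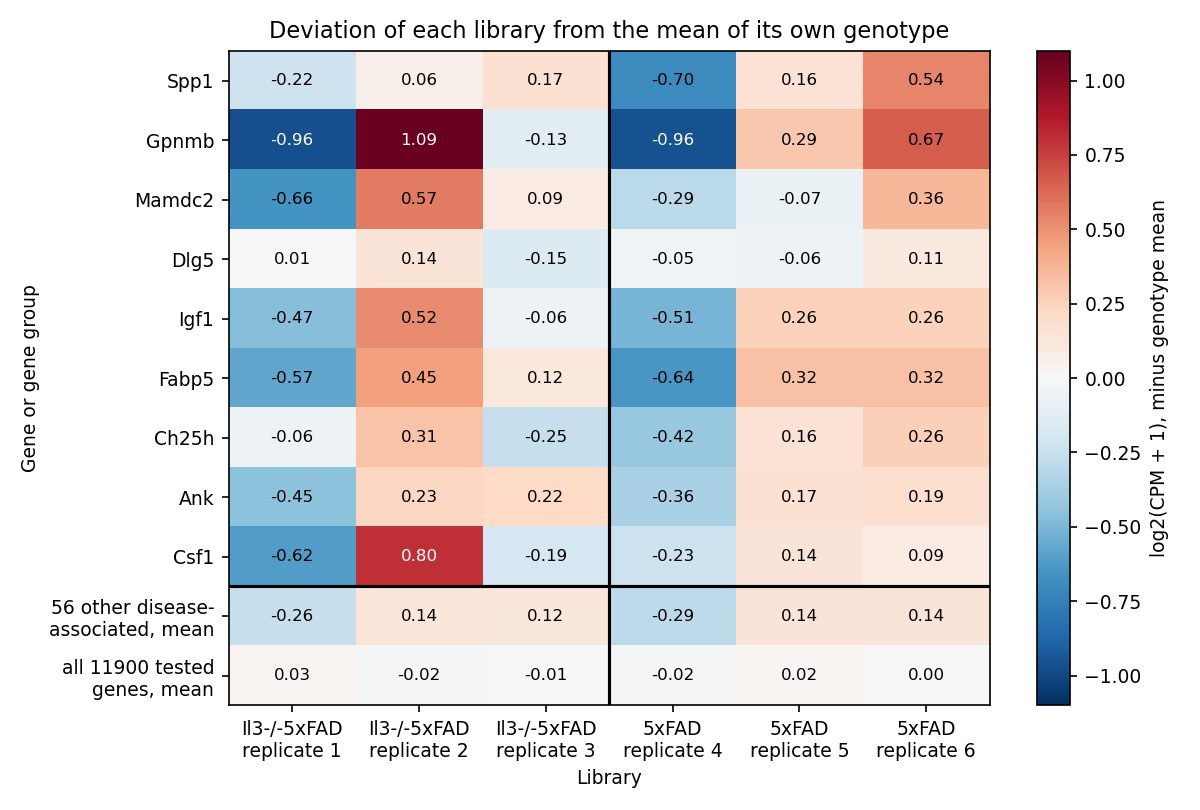
Deviation of each library from the mean of its own genotype, in log2(CPM + 1), for the 9 genes (rows) and, below the line, for the mean of 56 other disease-associated genes and of all 11900 tested genes; Il3-/-5xFAD is left of the vertical line and 5xFAD right of it. Blue is below and red above the genotype mean; replicate 1 of Il3-/-5xFAD and replicate 4 of 5xFAD are low for most members, and replicate 2 of Il3-/-5xFAD reaches 1.09 for Gpnmb and 0.80 for Csf1.

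The genes whose pattern over the 6 libraries was most like the mean standardized profile of the 9, among the 9799 other genes that averaged 5 CPM or more, were Rpl10 (a ribosomal protein gene with near-identical copies in the genome), St8sia6, Nceh1, Rragd, Cox6c and H2-D1, with Pearson's r from 0.99 to 1.00. Nceh1, a cholesterol ester hydrolase gene, is itself on the list of disease-associated genes, and was at 31.4 ± 7.14 CPM in Il3-/-5xFAD and 53.9 ± 12.02 CPM in 5xFAD (SD, n = 3 each). Rragd, which encodes a GTPase that recruits mTORC1 to lysosomes, was at 5.06 ± 1.77 CPM in Il3-/-5xFAD and 11.9 ± 2.84 CPM in 5xFAD. St8sia6, a sialyltransferase gene, was at 44.9 ± 13.4 CPM in Il3-/-5xFAD and 80.7 ± 16.7 CPM in 5xFAD.

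In all, 192 of these 9799 genes (1.96%) had an r over 0.9 and 263 (2.68%) an r under -0.9. Of the 52 other disease-associated genes at that level, 18 had an r over 0.9. With each genotype's mean taken off, the 6 most alike were Gnas, Cradd, Sfxn2, Rpl10, Abcd2 and Nceh1 (r from 0.99 to 1.00), and 9 of the 52 had an r over 0.9, against 101 of the 9799 (1.03%). With 6 libraries, high values of r are common among so many genes.

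The rest of the programme was compared by limma over all 11900 tested genes, with Benjamini-Hochberg adjustment, which called 0.882% of tested genes at an adjusted p under 0.05, 0.630% lower and 0.252% higher in Il3-/-5xFAD. Without the adjustment 16.5% of tested genes had a p under 0.05. Of the 56 other disease-associated genes, 7 fell, none rose and 49 did not pass. Their median log2 difference was -0.46, against -0.00 over all tested genes, and 52 of the 56 differences were negative. For 26 of them the groups did not overlap and Il3-/-5xFAD was lower, against 11.5% of all tested genes.

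Atp6v0d2, a subunit gene of the lysosomal proton pump found in few cell types, was at 0.0336, 0.604 and 0 CPM in Il3-/-5xFAD replicates 1, 2 and 3, and at 2.40, 2.80 and 4.81 CPM in 5xFAD replicates 4, 5 and 6 (log2 difference -1.83 ± 0.32, SE; limma adjusted p = 0.0288). Apoe, the main lipid carrier of the brain, was at 1724, 3097 and 3743 CPM in Il3-/-5xFAD replicates 1, 2 and 3, and at 4929, 7500 and 8880 CPM in 5xFAD replicates 4, 5 and 6 (-1.35 ± 0.27, limma adjusted p = 0.0438). Lgals3, which encodes galectin-3 (-1.11 ± 0.20, limma adjusted p = 0.0300), and the integrin gene Itgax (-0.997 ± 0.173, limma adjusted p = 0.0288) fell as well. The remaining 3 of the 7 were named to complete the count after their values were seen. They were the lysozyme gene Lyz2 (-0.97 ± 0.15, limma adjusted p = 0.0217), Clec7a, the gene of a beta-glucan receptor (-0.91 ± 0.18, limma adjusted p = 0.0457), and Crlf2, a cytokine receptor chain gene (-0.87 ± 0.16, limma adjusted p = 0.0299).

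Without 5xFAD replicate 5 or 6 the calls of Apoe (limma adjusted p = 0.17 and 0.27), Lgals3 (0.137 and 0.183) and Itgax (0.113 and 0.183) were lost. Without Il3-/-5xFAD replicate 2 those of Apoe (limma adjusted p = 0.0712) and Lgals3 (0.063) were lost. That of Apoe was also lost by edgeR (adjusted p = 0.0705), with median-ratio rescaling (limma adjusted p = 0.0614) and when genes had to average 5 CPM (limma adjusted p = 0.051), 7 of 13 alternatives in all. Atp6v0d2 was not tested without any 1 of the 5xFAD libraries, since it then failed the filter, and neither edgeR (adjusted p = 0.0922) nor DESeq2 (adjusted p = 0.13) called it. Its log2 difference depends on the pseudocount and was -3.13 with 0.25 and -0.67 with 5.

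The count of 7 moved with single libraries, to 20 without 5xFAD replicate 4, 19 without Il3-/-5xFAD replicate 3, 4 without Il3-/-5xFAD replicate 2 and 0 without 5xFAD replicate 5 or 6 (24 and 28 at an unadjusted p under 0.05). It was 3 by edgeR and 19 by DESeq2, and no gene of the list was called higher in any of these. Set in 1 order with these genes by their log2 difference, the 9 members held places 1, 2, 3, 6, 9, 11, 29, 37 and 62 of 65. Between Spp1 and Dlg5 stood Atp6v0d2 and the Wnt inhibitor gene Dkk2, named after its values were seen (-1.59 ± 0.33, SE; limma adjusted p = 0.0501, not passed). The place of Atp6v0d2 depends on the pseudocount: with 5 its difference of -0.67 was smaller in size than that of Igf1 (-1.101), and with 0.25 its -3.13 was lower than that of Gpnmb (-3.05).

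**Figure D3:**
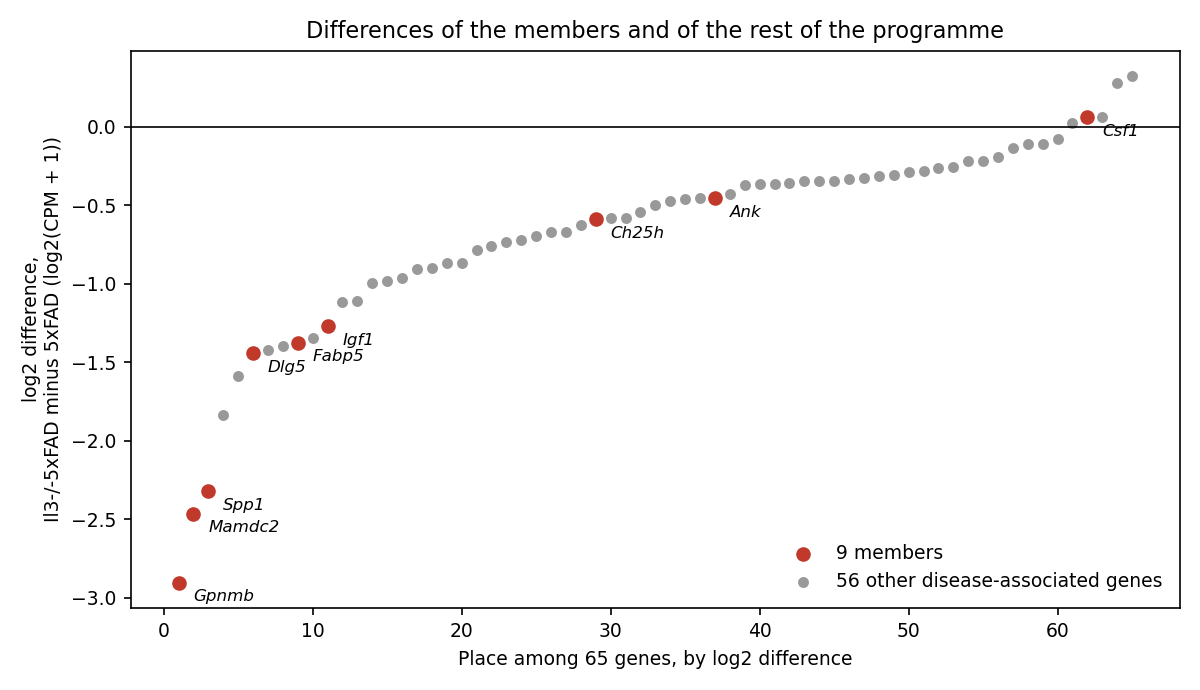
Log2 difference (Il3-/-5xFAD minus 5xFAD, on log2(CPM + 1)) of the 9 members, in red with their names, and of 56 other disease-associated genes, in grey, placed in order from the lowest. Gpnmb, Mamdc2 and Spp1 hold the 3 lowest places, from -2.90 to -2.32, and Csf1 lies just above 0.

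Of 61 tested receptor, family and pathway partner genes on 9 lists, 2 fell (3.28% called, against 0.882% of all tested genes), none rose, and the median log2 difference was 0.01. Without the adjustment 15 of the 61 had a limma p under 0.05, against 1966 of all 11900 tested genes. DESeq2 called 8 of the 61, against 605 of the 11900, and edgeR called 0, against 60.

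Both genes that fell were rare. Igfbp5, which encodes a binding protein of insulin-like growth factors, was at 0.571, 2.10 and 1.30 CPM in Il3-/-5xFAD replicates 1, 2 and 3, and at 5.54, 4.51 and 4.92 CPM in 5xFAD replicates 4, 5 and 6 (log2 difference -1.42 ± 0.28, SE; limma adjusted p = 0.0438). Its call was lost without Il3-/-5xFAD replicate 1 (limma adjusted p = 0.0816) and without 5xFAD replicate 4, 5 or 6 (limma adjusted p = 0.0675, 0.148 and 0.259), by edgeR (adjusted p = 0.0922), with a pseudocount of 0.25 (limma adjusted p = 0.055) and with median-ratio rescaling (limma adjusted p = 0.0553). Nt5e, which encodes the ectonucleotidase CD73, was at 1.71, 0.852 and 0.788 CPM in Il3-/-5xFAD replicates 1, 2 and 3, and at 4.29, 3.83 and 6.12 CPM in 5xFAD replicates 4, 5 and 6 (-1.45 ± 0.27, limma adjusted p = 0.0378). Its call was lost without Il3-/-5xFAD replicate 2 or 5xFAD replicate 5 or 6 (limma adjusted p = 0.101, 0.103 and 0.268) and by edgeR (adjusted p = 0.0688).

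Of 8 tested genes for receptors of osteopontin limma called 0 (3 at an unadjusted p under 0.05, 0 by edgeR and 2 by DESeq2). The integrin genes Itgb5 (2505 ± 279 CPM in Il3-/-5xFAD and 2671 ± 52.2 CPM in 5xFAD, SD, n = 3 each) and Itgb1 (461 ± 8.46 CPM in Il3-/-5xFAD and 476 ± 13.2 CPM in 5xFAD) had limma adjusted p of 0.703 and 0.814. Cd44, named after its values were seen, was at 18.8 ± 6.24 CPM in Il3-/-5xFAD and 35.04 ± 8.501 CPM in 5xFAD, without overlap (log2 difference -0.89 ± 0.23, SE; limma adjusted p = 0.0831).

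Of 5 tested genes of the CSF axis limma called 0, with 0 at an unadjusted p under 0.05, 0 by edgeR and 0 by DESeq2. Csf1r, the receptor of CSF1, was at 10136 ± 465 CPM in Il3-/-5xFAD and 9332 ± 302 CPM in 5xFAD (limma adjusted p = 0.722), and Csf3r at 674 ± 37.4 CPM in Il3-/-5xFAD and 661 ± 34.6 CPM in 5xFAD (limma adjusted p = 0.903). Of 9 tested genes of the IGF axis, Igfbp5 alone passed (5 had an unadjusted p under 0.05, and edgeR called 0 and DESeq2 3).

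For the MiT/TFE transcription factors, which control lysosomal genes and Gpnmb, and other Gpnmb partners, limma called 0 of 5 tested genes, with 0 at an unadjusted p under 0.05, 0 by edgeR and 0 by DESeq2. Tfe3 was at 202 ± 25.5 CPM in Il3-/-5xFAD and 182 ± 7.78 CPM in 5xFAD (limma adjusted p = 0.494), and Flcn, which encodes a regulator of these factors, at 178 ± 21.3 CPM in Il3-/-5xFAD and 169 ± 8.44 CPM in 5xFAD (limma adjusted p = 0.753). Of 10 tested genes of oxysterol metabolism and sensing the counts were also 0 by limma, 0 unadjusted, 0 by edgeR and 0 by DESeq2. Gpr183, the receptor of an oxysterol made from the product of Ch25h, was at 121 ± 15 CPM in Il3-/-5xFAD and 110 ± 6.17 CPM in 5xFAD (limma adjusted p = 0.560), and the liver X receptor gene Nr1h2 at 88.4 ± 7.30 CPM in Il3-/-5xFAD and 84.4 ± 5.07 CPM in 5xFAD (limma adjusted p = 0.781).

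Of 6 tested genes of fatty acid binding proteins and their nuclear receptors limma called 0 (2 at an unadjusted p under 0.05, 0 by edgeR and 1 by DESeq2). The most abundant genes of this list, the retinoid X receptor genes Rxra (117 ± 1.59 CPM in Il3-/-5xFAD and 127 ± 6.20 CPM in 5xFAD) and Rxrb (105 ± 6.44 CPM in Il3-/-5xFAD and 102 ± 8.48 CPM in 5xFAD), had limma adjusted p of 0.456 and 0.865. Of 6 tested genes of the discs large family limma called 0 (2 at an unadjusted p under 0.05, 0 by edgeR and 1 by DESeq2), and their median difference was positive, at 0.25. Tjp1, which encodes the junction protein ZO-1, was at 327 ± 23.4 CPM in Il3-/-5xFAD and 256 ± 19.0 CPM in 5xFAD (0.35 ± 0.09, limma adjusted p = 0.0728, with 0.00657 by DESeq2 and 0.0375 by limma without Il3-/-5xFAD replicate 3), and Cask at 89.8 ± 3.96 CPM in Il3-/-5xFAD and 75.3 ± 2.77 CPM in 5xFAD (limma adjusted p = 0.154).

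Of 6 tested MAM domain genes limma called 0 (1 at an unadjusted p under 0.05, 0 by edgeR and 0 by DESeq2), and Nrp1 and Nrp2, the neuropilin genes, had limma adjusted p of 0.835 and 0.968. Nt5e alone passed among 6 tested genes of pyrophosphate and phosphate handling (2 had an unadjusted p under 0.05, and edgeR called 0 and DESeq2 1). Of 14 homeostatic microglial genes limma called 0 (3 at an unadjusted p under 0.05, 0 by edgeR and 0 by DESeq2), with a median difference of 0.12. Of the 14 differences 12 were positive and 2 negative. For 4 of the genes every Il3-/-5xFAD library lay above every 5xFAD library (9.65% of all tested genes), and for 0 below (11.5%). The most abundant of the 14, Cst3, was 1 of the 2 with a negative difference. It was at 15988 ± 1797 CPM in Il3-/-5xFAD and 18335 ± 888 CPM in 5xFAD (limma adjusted p = 0.606).

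**Figure D4:**
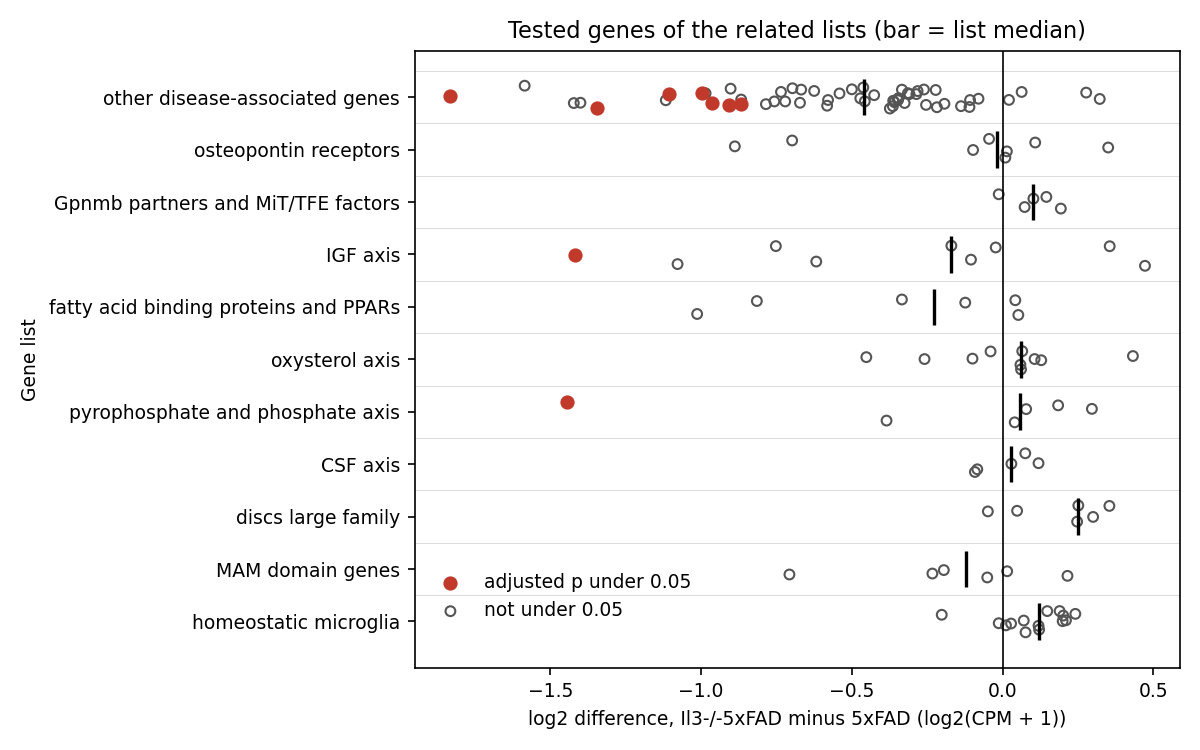
Log2 difference (Il3-/-5xFAD minus 5xFAD, on log2(CPM + 1)) of each tested gene of the 11 lists, 1 row a list, with filled points for a limma adjusted p under 0.05 and black bars for list medians. The medians of the partner lists lie between -0.23 and 0.25, and that of the other disease-associated genes at -0.46.

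Summed markers of neutrophils, monocytes, T and NK cells, and choroid plexus were lower in every Il3-/-5xFAD library than in any 5xFAD library. Summed over 12 neutrophil markers the level was 213 to 833 CPM in Il3-/-5xFAD and 1228 to 3309 CPM in 5xFAD, with 5 of 11 tested markers lower by limma, against 0.630% of all tested genes. The 9 monocyte markers in the table summed to 77.4 to 152 CPM in Il3-/-5xFAD and 174 to 272 CPM in 5xFAD (3 of 8 lower), the 10 markers of T and NK cells to 43.3 to 62.9 CPM in Il3-/-5xFAD and 90.2 to 181 CPM in 5xFAD (3 of 10 lower), and the 6 of choroid plexus to 63.3 to 131 CPM in Il3-/-5xFAD and 182 to 517 CPM in 5xFAD (2 of 4 lower). None of these was at 0 in every library; Ly6g, which defines neutrophils, was at 0 in Il3-/-5xFAD replicate 2.

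With each genotype's mean taken off, the log2 summed level of each marker list was also set beside the mean log2 level of the 9 genes over the 6 libraries, as a description. Pearson's r was 0.88 for astrocyte, 0.71 for endothelial and 0.63 for choroid plexus markers, and -0.85 for the microglial and -0.53 for the neuronal ones. For the other 7 lists it lay between -0.23 (neutrophil) and 0.23 (oligodendrocytes and precursors). The 6 neuronal markers were rare, summing to 2.557 to 3.425 CPM in Il3-/-5xFAD and 2.666 to 5.184 CPM in 5xFAD. Only 1 of the 6 passed the filter, and 4 were at 0 in some library. The summed level of the astrocyte markers was 130.5, 150 and 137 CPM in Il3-/-5xFAD replicates 1, 2 and 3, and 141, 170 and 158 CPM in 5xFAD replicates 4, 5 and 6. That of the choroid plexus markers was 63.3, 131 and 77 CPM in Il3-/-5xFAD replicates 1, 2 and 3, and 254.5, 182 and 517 CPM in 5xFAD replicates 4, 5 and 6. Both were thus highest in Il3-/-5xFAD replicate 2 and lowest in replicate 1, as were most of the 9 genes. In 5xFAD the order was shared in part. The astrocyte sum was lowest in replicate 4, as were 8 of the 9 genes, but highest in replicate 5. The choroid plexus sum was highest in replicate 6, as were 7 of the 9 genes, but lowest in replicate 5.

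The neutrophil markers were lowest in Il3-/-5xFAD replicate 2 (213 CPM, against 778 and 833 CPM in replicates 1 and 3), where 8 of the 9 members were highest, and lowest in 5xFAD replicate 4 (1228 CPM, against 3309 and 2265 CPM in replicates 5 and 6), where 8 of the 9 members were lowest too. Markers of oligodendrocytes and their precursors (165 to 182 CPM in Il3-/-5xFAD and 200 to 229 CPM in 5xFAD) and of endothelium (53.6 to 55.7 CPM in Il3-/-5xFAD and 58.0 to 75.5 CPM in 5xFAD) were also apart, with 0 markers called by limma. The oligodendrocyte and precursor list shares Vcan with the monocyte list, and 1 endothelial marker, Flt1, is also on the list of disease-associated genes. Those of border-associated macrophages (114 to 150 CPM in Il3-/-5xFAD and 145 to 183 CPM in 5xFAD), B cells, astrocytes, neurons, and fibroblasts and mural cells overlapped between the genotypes. Among the called disease-associated genes, Lyz2 and Lgals3 kept the library order of the neutrophil sum within both genotypes, as seen afterwards. Lyz2 was at 667, 643 and 848 CPM in Il3-/-5xFAD replicates 1, 2 and 3. It was at 1099, 1706 and 1445 CPM in 5xFAD replicates 4, 5 and 6. The other called genes of that list did not keep this order in both genotypes. The part of such cells in the levels of the 9 genes and of the other disease-associated genes was not tested.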

How the data were processed

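The authors deposited 1 table of CPM for 20129 genes in 6 libraries, each column summing to 1000000. STAR, HTSeq, edgeR and the build mm9 are listed, without versions or roles, per the submitters' processing notes. No annotation or counting mode was given in those sources. All deposited CPM values (100%, tolerance 0.01 reads) were whole multiples of 1 read, so reads were recovered, 27970850 to 37605490 per library. No pair of replicates differed by as little as sampling noise (chi-square per degree of freedom at least 22.1).

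The 11900 genes that reached 1 CPM in 3 or more libraries were tested with limma 3.58.1 (R 4.3.3; eBayes with trend, two-sided) on log2(CPM + 1), which understates changes of low genes, with Benjamini-Hochberg adjustment. Alternatives included edgeR 4.0.16 (quasi-likelihood, TMM) and DESeq2 1.42.0 on the recovered reads. P-values measure the spread between 3 pools a genotype. The limma and edgeR steps were tested on simulated reads. Transcript lengths and shared 50-base stretches came from GENCODE M21, with the longest coding transcript of each gene, and promoter windows from RefSeq.

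The members, gene lists and tests were chosen with earlier results of these data known. Genes were named by rule: all 9 members; in each list up to 4 called genes by size of difference, or else the 2 most abundant; and the 6 genes most alike in pattern.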

Additional observations from a re-analysis of the deposited data

How the results depend on the processing

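The median log2 difference of the 9 genes stayed between -1.53 and -1.07 in all 13 alternatives, and the sign of each gene's difference held in all of them but for Csf1 (-0.34 without Il3-/-5xFAD replicate 2, -0.06 without 5xFAD replicate 4, and up to 0.37 without Il3-/-5xFAD replicate 1). Dlg5 moved most against its spread, from -0.96 with a pseudocount of 5 to -1.66 by DESeq2. The number of genes called over the whole table was 105 with limma (30 higher and 75 lower). It was 8 with no filter, 68 when genes had to average 5 CPM and 68 with median-ratio rescaling. It was 60 by edgeR (25 higher and 35 lower), 605 by DESeq2, and 11 to 587 with 1 library left out. Higher calls outnumbered lower ones with no filter (6 and 2) and without 5xFAD replicate 6 (8 and 3). In every other setting lower calls outnumbered higher ones. Calls among the other disease-associated genes, 7 with limma, were 0 with no filter (30 at an unadjusted p under 0.05), 4 when genes had to average 5 CPM, 3 by edgeR and 19 by DESeq2, and 0 to 20 with 1 library left out; the cause was not tested. Of the named partner genes, 5 changed sign without 1 library: Csf3r (-0.012 to 0.076 over the 6 settings), Flcn (-0.014 to 0.158), Nrp1 (-0.140 to 0.001), Nrp2 (-0.091 to 0.131) and Rxrb (-0.003 to 0.109). With no filter, none of the calls of Apoe, Itgax, Lgals3, Atp6v0d2, Igfbp5 and Nt5e held. Without 1 library of 5xFAD, Atp6v0d2 was below the filter. No paired analysis was possible because the genotypes share no replicate number. At 58 to 12014 reads per gene and library, depth limits the values of the rare members Mamdc2, Gpnmb and Dlg5 in Il3-/-5xFAD most.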
